A study of Callithrix jacchus with 4 samples.

Results

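The genes described here encode secreted or membrane-bound messengers of immune signalling: the CC and CXC chemokines, the interleukins, the interferons and the ligands of the TNF superfamily. A gene was taken where its symbol in the annotation of the array was CCL or CXCL and a number, IL and a number with at most 1 letter from A to F, IFNA and a number, or was IFNB1, IFNG, TNF, LTA, LTB or TNFSF and a number, and where a feature (a spot of the array) carried that symbol alone. This gave 95 genes of 18014, read by 112 features. They were 22 CC chemokines, 14 CXC chemokines, 36 interleukins, 10 interferons and 13 TNF superfamily ligands. Receptors and symbols with a hyphen were left out.

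The animals were male common marmosets, 3 years old. 1 animal received vehicle, and 4 received 2.5 mg/kg MPTP, a toxin that reaches dopamine neurons as its oxidised metabolite, as 1 intravenous injection under pentobarbital. 1 of the 4 was killed at each of the times 2 h, 6 h, 1 day and 14 days. From each, a strip of the substantia nigra pars compacta of 1 side, from 2 slides, was cut out by laser, so that the RNA came from all cells in the strip and not from dopamine neurons alone. Each of the 4 arrays, made with probes for human transcripts, set the RNA of 1 MPTP animal, labelled with Cy5, against vehicle RNA labelled with Cy3.

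Chemokines form gradients that draw leukocytes along vessels and into tissue, and they act through G-protein-coupled receptors. Interleukins, interferons and TNF ligands bind receptor chains that signal through JAK kinases and STAT factors or through NF-kB. In the brain, microglia, astrocytes, endothelial cells and perivascular macrophages can make many of them after injury, while others are known mainly from lymphocytes or from skin and gut epithelium and are little expressed in healthy brain.

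All values below are log2 ratios of MPTP over vehicle unless another quantity is named, so 1 is 2-fold higher and −1 is 2-fold lower. The deposited table names neither its scale nor its direction, and both were read from its form and from the dyes. If the ratio ran the other way, every sign would turn. With 1 array per time, differences between animals could not be tested, and p-values are not given. The same vehicle animal stands behind all 4 arrays, so values of a gene on several arrays share whatever was particular to that animal. In tissue RNA, fewer cells of a type and less RNA per cell cannot be told apart. Of the 95 genes, 80 (84.2%) had 1 feature, against 58.9% of all genes, and for these the measurement error could not be estimated. The SD given beside the other genes is taken over their 2 or 3 features. The table holds ratios only, so neither the level of a cytokine nor that of a cell type's markers in the tissue can be read from it.

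Cytokine ligands stood more often at least 2-fold above than below vehicle at 2 h and 6 h, and few stood that far from it at 14 days. At 2 h, 10 of 95 (10.5%) were at least 2-fold higher, where 5.47% of all genes were, and 4 (4.21%) were at least 2-fold lower, where 7.22% were. At 6 h, 8 (8.42%) were higher and 4 lower, against 3.37% and 3.89% of all genes. At 1 day, 4 (4.21%) were higher and 3 (3.16%) lower, against 2.27% and 1.67%. At 14 days, 2 (2.11%) were higher and 3 lower, against 2.16% and 2.12%, so the higher share lay at the level of all genes. Genes with 1 feature scatter more widely, and of these 7.52%, 4.62%, 3.29% and 3.14% were higher and 8.69%, 4.86%, 2.32% and 2.87% lower from 2 h to 14 days. The 80 ligands with 1 feature had 9 (11.3%), 8 (10.0%), 4 (5.00%) and 2 (2.50%) higher and 4, 4, 3 and 3 lower. With the arrays scaled to 1 spread, 2 ligands were lower at 2 h, 8 were higher at 1 day and 6 were lower at 14 days. At a 3-fold threshold, 7 were higher and 2 lower at 2 h. At 6 h, 1 was higher and 1 lower, so the difference there rested on values between 2-fold and 3-fold.

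From 2 h to 14 days the median of the ligands was 0.25, 0.17, 0.07 and 0.10. Over all genes it was 0.03, 0.03, 0.02 and 0.0095. The SD over the ligands was 1.17, 0.71, 0.55 and 0.50, and over all genes 0.71, 0.57, 0.48 and 0.47. At 2 h the width came from a few genes far above or below the rest. Olfactory receptors, a family made in the nose and little expressed in brain, gave a second comparison with 112 genes. Their medians were 0.11, 0.06, 0.07 and 0.08, with SDs of 0.37, 0.30, 0.23 and 0.22. Of them 5, 0, 2 and 1 were at least 2-fold higher from 2 h to 14 days, and 0, 2, 0 and 0 lower.

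**Figure D1:**
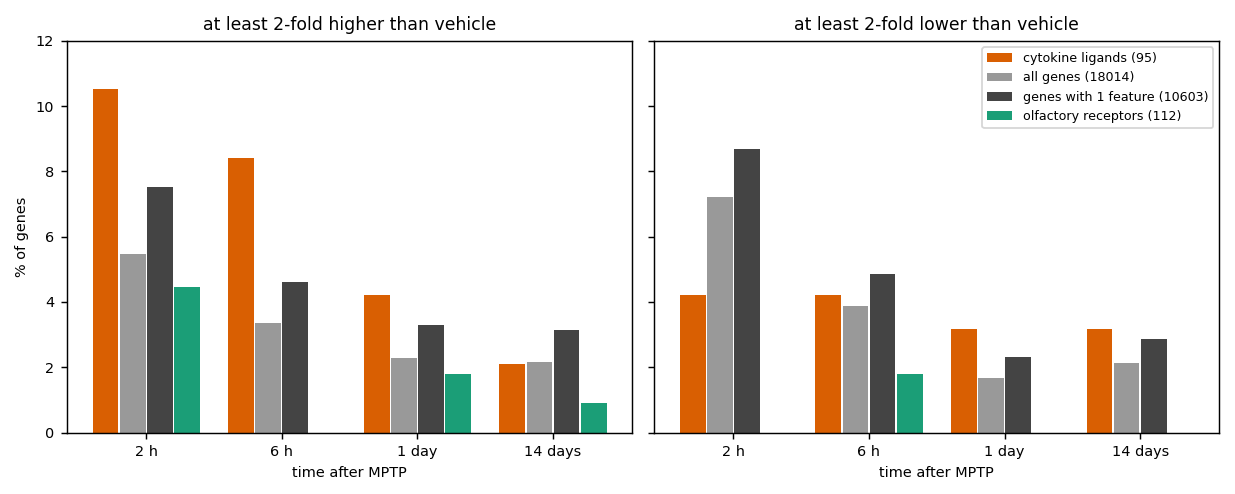
Share of genes at least 2-fold higher (left) or lower (right) than vehicle, in percent, at each time after MPTP, for cytokine ligands, all genes, genes with 1 feature and olfactory receptors. The ligand bar of higher genes falls from 10.5% at 2 h to 2.11% at 14 days; bars come from 1 array per time and carry no error.

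On any of the 4 arrays, 26 of the 95 ligands (27.4%) were at least 2-fold from vehicle in either direction, where 20.5% of all genes were. These shares are not matched for the number of features. More of the ligands than of all genes have 1 feature, and genes with 1 feature passed 2-fold more often on each array. Among the 15 ligands with 2 or more features, 1 (6.67%) passed on any array. Of the 26, 17 passed on 1 array and 9 on 2 or more. The other 69 had no value 2-fold from vehicle on any array. Exact zeros, which carry no readable ratio, count here and below as within 2-fold. IL4 was such a zero on all 4 arrays and IL1A on 3. Only 1 of the 26, CXCL3, had more than 1 feature.

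**Figure D2:**
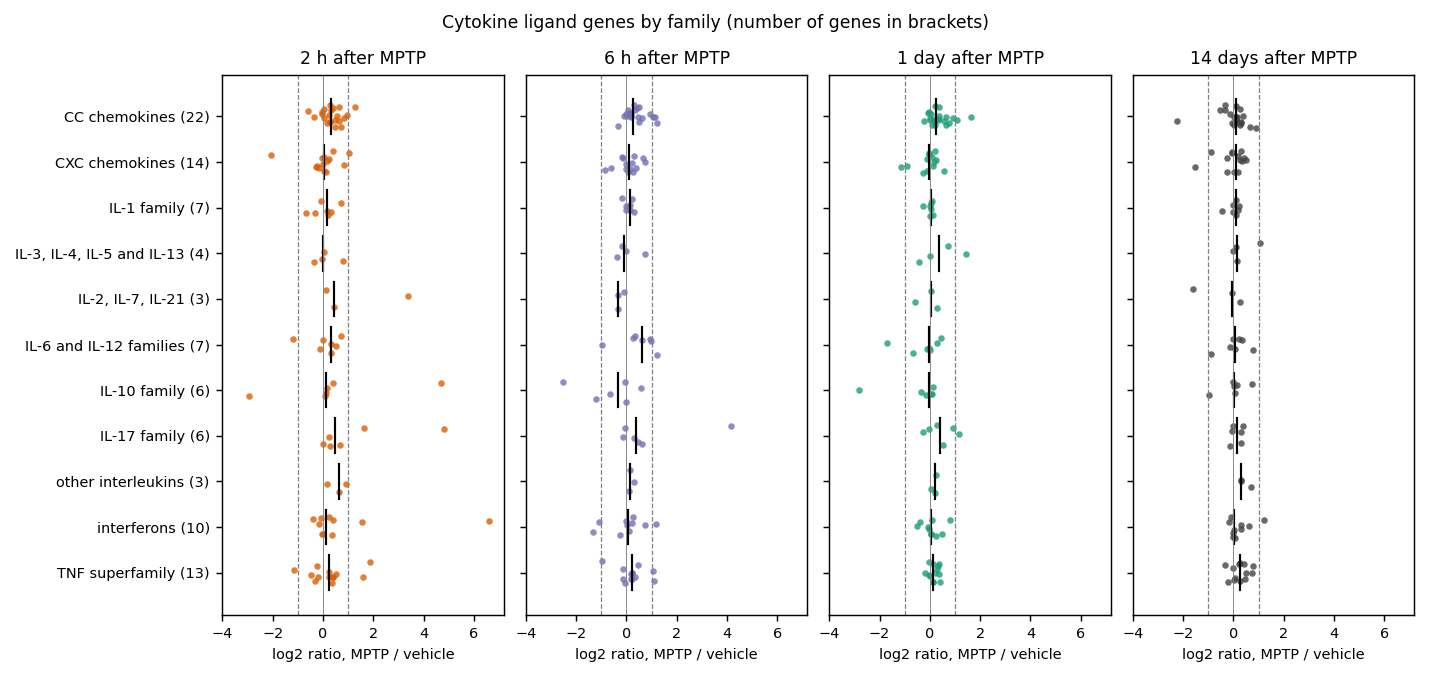
Log2 ratio of MPTP over vehicle for each of the 95 ligands (points) by family, with 1 panel per time; black bars mark family medians and dashed lines mark 2-fold. At 2 h single genes of the interferon, IL-17 and IL-10 families reach 4.70 to 6.62, while the IL-1 family stays within 2-fold on all 4 arrays. Exact zeros of IL1A on 3 arrays carry no readable ratio.

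The CC chemokines, which attract monocytes and lymphocytes, had medians of 0.31, 0.24, 0.26 and 0.09 over 22 genes from 2 h to 14 days. Of these, 1 (4.55%), 3 (13.6%), 2 (9.09%) and 0 were at least 2-fold higher, against 5.47%, 3.37%, 2.27% and 2.16% of all genes. 1 (4.55%) was lower, at 14 days, against 2.12%. CCL2, the ligand of CCR2 that recruits monocytes, had 0.05 in the 2 h animal, 1.22 in the 6 h animal, −0.02 in the 1 day animal and 0.09 in the 14 day animal. It was thus 2.33-fold higher in the 6 h animal and within 0.1 of vehicle in the other 3. CCL8, another monocyte attractant and close to CCL2 in the marmoset gene order, lay at 0.71, 1.04, 0.64 and 0.04. CCL7 lies directly beside CCL2 and binds CCR2 as well. Its values were 0.29, 0.49, 0.35 and −2.26, so it stood 4.80-fold lower at 14 days, when CCL2 stood near vehicle. CCL11, the eotaxin that draws eosinophils and lies between CCL8 and CCL7, had 0.33, 0.62, 0.12 and 0.65.

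CCL22, made by macrophages and dendritic cells and read by CCR4, was listed at an exact 0 at 2 h and lay at 1.12, 0.75 and 0.38 later. CCL17, which shares that receptor, had 0.62, 0.41, 0.63 and 0.03. CCL1, the ligand of CCR8, lay at 1.28, 0.18, 0.90 and −0.05. CCL25, which guides lymphocytes to thymus and gut through CCR9, lay at 0.85, 0.93, 1.63 and 0.10, and was 3.09-fold higher in the 1 day animal. CCL27, a skin chemokine that binds CCR10, had 0.48, −0.34, 1.10 and 0.12.

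CCL3, CCL4 and CCL5, which activated microglia and T cells can release, stayed within 2-fold. CCL3 lay at 0.48, 0.14, 0.06 and 0.28, CCL4 at 0.63, 0.17, −0.10 and 0.92, and CCL5 at −0.05, 0.20, −0.23 and −0.34. The symbols CCL3 and CCL4 do not occur in the marmoset gene table used for names, and both belong to groups of near-identical copies in primates, so their features may read more than 1 gene. CCL15, CCL16, CCL18, CCL19, CCL20, CCL21, CCL23, CCL24, CCL26 and CCL28 also stayed within 2-fold. The 15 CC chemokines within 2-fold on all 4 arrays spanned −0.61 (CCL28 at 2 h) to 0.96 (CCL24 at 2 h).

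The CXC chemokines had medians of 0.03, 0.11, −0.02 and 0.10 over 14 genes, close to those of all genes. CXCL8, the neutrophil attractant also known as interleukin-8, lay at −2.05 at 2 h, was listed at exactly 0 at 6 h, and stood at −1.13 and −1.53 on the 1 day and 14 day arrays. On the 3 arrays with a readable ratio it was 4.14-fold, 2.19-fold and 2.90-fold lower than in the vehicle animal. CXCL3, which acts on the same receptor CXCR2, lay at 1.04 ± 0.34 (SD, 2 features), 0.72 ± 0.27, −0.03 ± 0.16 and −0.07 ± 0.39. Its 2 features read 1.28 and 0.80 at 2 h, so 1 of them was under 2-fold. The other ligands of CXCR2 near CXCL8 in the gene order stayed within 2-fold: CXCL1 had 0.04, 0.26, −0.12 and 0.19, and CXCL2 had 0.24 ± 0.51 (2 features), 0.31 ± 0.56, 0.13 ± 0.32 and 0.03 ± 0.10. CXCL5 and CXCL6 of that cluster reached −0.25 and −0.90 at the lowest.

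CXCL9, CXCL10 and CXCL11 are induced by interferon gamma and attract T cells through CXCR3. CXCL10 was listed at 0 at 2 h and lay at 0.22, −0.29 and −0.89 later. CXCL9 had 0.83, 0.65, 0.18 and 0.31. CXCL11 had 0.02 ± 0.51 (2 features), 0.37 ± 0.86, −0.02 ± 0.47 and 0.25 ± 0.86, an SD larger than the value at each time. None of the 3 was 2-fold from vehicle on any array. CXCL12, the ligand of CXCR4 made by endothelium, meninges and some neurons, had −0.01 ± 0.84 (3 features), 0.08 ± 0.73, −0.03 ± 0.34 and 0.43 ± 0.36. Its features did not agree: at 2 h they read −0.01, −1.31 and 0.26, and at 6 h 0.34, −1.03 and 0.08. The 3 features are annotated with different transcript accessions. CXCL13, CXCL14, CXCL16 and CXCL17 stayed within 2-fold, with −0.87 for CXCL13 and −0.62 for CXCL14 at 6 h the farthest from vehicle.

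The interleukins as a whole had medians of 0.23, 0.11, 0.03 and 0.10 over 36 genes. Of the 36, 10 (27.8%) were at least 2-fold from vehicle on some array, where 20.5% of all genes were. The shares are not matched for the number of features. The IL-1 family, the early inflammatory interleukins of macrophages and microglia, stood near vehicle. IL1B, its main secreted form, lay at −0.33, 0.21, −0.27 and −0.47. IL1A, released from damaged cells, lay at −0.68 at 2 h and was listed at exactly 0 on the other 3 arrays. IL18, cut to its active form by caspase-1, had 0.71, 0.13, 0.11 and 0.21. IL33, an alarmin held in the nuclei of astrocytes and oligodendrocytes, had −0.09, −0.04, 0.03 and 0.12, the narrowest course of these. All 7 members, with IL36A, IL36B and IL37, lay between −0.68 and 0.71.

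The IL-6 and IL-12 families act through receptor chains related to gp130. IL6, which drives the hepatic response to inflammation, had 0.53, 1.21, −0.04 and 0.06. Like CCL2, it was more than 2-fold higher in the 6 h animal (2.31-fold) and within 0.1 of vehicle at 1 day and 14 days. CCL8, CCL22 and TNFSF12 were likewise at least 2-fold higher in the 6 h animal alone. The difference of log2 ratios, 1 day minus 6 h, was −1.24 for IL6 and −1.24 for CCL2. Within these families it was −1.58 for IL11 and −1.09 for IL23A. The 6 h median of the 7 genes was 0.61, against 0.33, −0.04 and 0.06 at the other times. IL11, a relative of IL6, had 0.33, 0.92, −0.66 and −0.03, and IL23A, the specific chain of IL-23, had 0.01, 0.96, −0.13 and 0.77. IL12A lay at 0.73, 0.35, 0.42 and 0.34, IL12B at −0.12, 0.61, 0.28 and 0.23, and IL27 at 0.33, 0.26, −0.02 and −0.13. IL31, a T cell product that causes itch, went the other way with −1.20, −0.96, −1.71 and −0.91, and was at least 2-fold lower at 2 h and 1 day.

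The IL-10 family held the lowest interleukin value, that of IL26, and 1 of the highest, that of IL20. IL10, which damps macrophage activation, lay at 0.15, −0.05, 0.10 and 0.15. IL20, a cytokine of skin epithelium, lay at 4.70 at 2 h, or 25.9-fold higher, then at −0.63 and 0.06, and was listed at 0 at 14 days. IL19 and IL24, which share receptors with IL20 and lie on either side of it in the gene order, had 0.11, 0.56, 0.13 and 0.02 and, for IL24, 0.09 ± 0.05 (2 features), −0.03 ± 0.07, −0.14 ± 0.08 and 0.06 ± 0.17. The high value of IL20 was thus seen in 1 feature on 1 array, without a like value in its neighbours. IL26, a product of T helper and NK cells, lay at −2.92, −2.52, −2.84 and −0.97. It was 7.59-fold, 5.72-fold and 7.17-fold lower on the first 3 arrays and 1.87 closer to vehicle at 14 days than at 1 day. IL22, which acts on epithelium, lay at 0.39, −1.20, −0.37 and 0.73. IL22, IL26 and IFNG follow each other in the marmoset gene order, and their values differed in sign at 2 h, 6 h, 1 day and 14 days.

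The IL-17 family, made largely by T helper cells and epithelium, had medians of 0.48, 0.37, 0.40 and 0.14 over 6 genes. IL17C, an epithelial member that signals through a receptor of the chains IL17RE and IL17RA, lay at 4.80, 4.15, 0.51 and 0.30. It was 27.8-fold higher in the 2 h animal and 17.8-fold in the 6 h animal, and within 2-fold at the later times. IL17F lay at 1.62, −0.06, 0.92 and 0.40, while IL17A, beside it in the genome and sharing its receptor, had 0.24, −0.15, −0.26 and −0.05. IL17B had 0.68, 0.64, 1.15 and 0.31. IL17D, known from muscle and the nervous system, and IL25 stayed between −0.14 and 0.44.

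IL7, a growth factor of lymphocytes made by stromal cells, had 3.37 at 2 h, then −0.34, −0.58 and −1.61. It was 10.3-fold higher in the 2 h animal and 3.05-fold lower in the 14 day animal. IL2, the growth factor of T cells, had 0.13 ± 0.72 (2 features), −0.34 ± 0.63, 0.30 ± 2.09 and −0.05 ± 0.42. At 1 day its features read −1.18 and 1.78, so they gave opposite directions and no value can be taken from their median. IL21, beside it, had 0.44, −0.10, 0.05 and 0.25. Of the type 2 cytokines clustered with IL3, IL13, which drives allergic responses, lay at 0.79, −0.19, 1.45 and 1.04 and was at least 2-fold higher at 1 day and 14 days. IL5, the eosinophil factor, had −0.34, −0.38, −0.45 and 0.11, and IL3 had 0.03, 0.72, 0.70 and 0.14. IL4, directly beside IL13, was an exact 0 on each of the 4 arrays and has no readable ratio.

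IL34, a ligand of the microglial receptor CSF1R that neurons make, had 0.63, 0.16, 0.24 and 0.30. IL16, a T cell attractant, had 0.15 ± 0.31 (3 features), 0.09 ± 0.20, 0.03 ± 0.03 and 0.68 ± 0.34. Its 3 features read 0.29, 0.96 and 0.68 at 14 days, all above vehicle and all under 2-fold. IL32 had 0.91, 0.30, 0.21 and 0.32.

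Among the interferons, the type I genes start antiviral defence through IFNAR, and IFNG is the type II interferon of T and NK cells that activates macrophages and microglia. IFNG lay at 1.56, 1.17, 0.49 and 1.21, and was 2.95-fold, 2.25-fold and 2.32-fold higher at 2 h, 6 h and 14 days. IFNB1, the interferon that many cell types release first, lay at −0.38, 0.22, 0.05 and 0.30. IFNA6 lay at 6.62 at 2 h, which is the limit of the deposited scale, then at −1.08, 0.22 and 0.62. IFNA8 lay at 0.37, −1.34, −0.52 and −0.17. IFNA2, IFNA4, IFNA5, IFNA10, IFNA14 and IFNA21 stayed within 2-fold, and the 7 interferons within 2-fold on all arrays lay between −0.38 (IFNB1 at 2 h) and 0.81 (IFNA14 at 1 day). None of the 8 IFNA symbols occurs in the marmoset gene table. The human genes are close copies of each other, so which marmoset gene a feature reads is uncertain, and the values of the 8 features differed from each other. Medians over the 10 interferons were 0.12, 0.07, 0.06 and 0.04.

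The TNF superfamily holds trimeric ligands that signal death, survival or co-stimulation. TNF, the founding member and a product of activated microglia, had 0.35 ± 0.34 (2 features), −0.12 ± 0.07, −0.04 ± 0.24 and 0.51 ± 0.05. Its 2 features agreed at 14 days, at 0.54 and 0.47, and stayed under 2-fold throughout. LTA and LTB, the lymphotoxins that flank TNF, had 0.26, 0.18, 0.10 and 0.74 for LTA and −0.33, 0.23, −0.18 and −0.20 for LTB. TNFSF10, the death ligand TRAIL, had 0.40 ± 0.13 (2 features), 0.21 ± 0.19, 0.37 ± 0.36 and 0.04 ± 0.07.

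TNFSF14, or LIGHT, a ligand of the lymphotoxin beta receptor, lay at 1.88, 0.18, 0.13 and 0.79 and was 3.67-fold higher in the 2 h animal. TNFSF13, or APRIL, a survival factor of plasma cells, lay at 1.60, 1.10, 0.41 and 0.23. TNFSF12, or TWEAK, lies directly beside it and had 0.53, 1.04, 0.22 and 0.27. Both were just over 2-fold higher at 6 h. TNFSF18, the ligand of GITR on T cells, lay at −1.15 and −0.99 at 2 h and 6 h and was listed at exactly 0 at 1 day and 14 days. TNFSF4, TNFSF8, TNFSF9, TNFSF11 and TNFSF15 stayed within 2-fold. The medians of the 13 genes were 0.26, 0.21, 0.13 and 0.24.

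**Figure D3:**
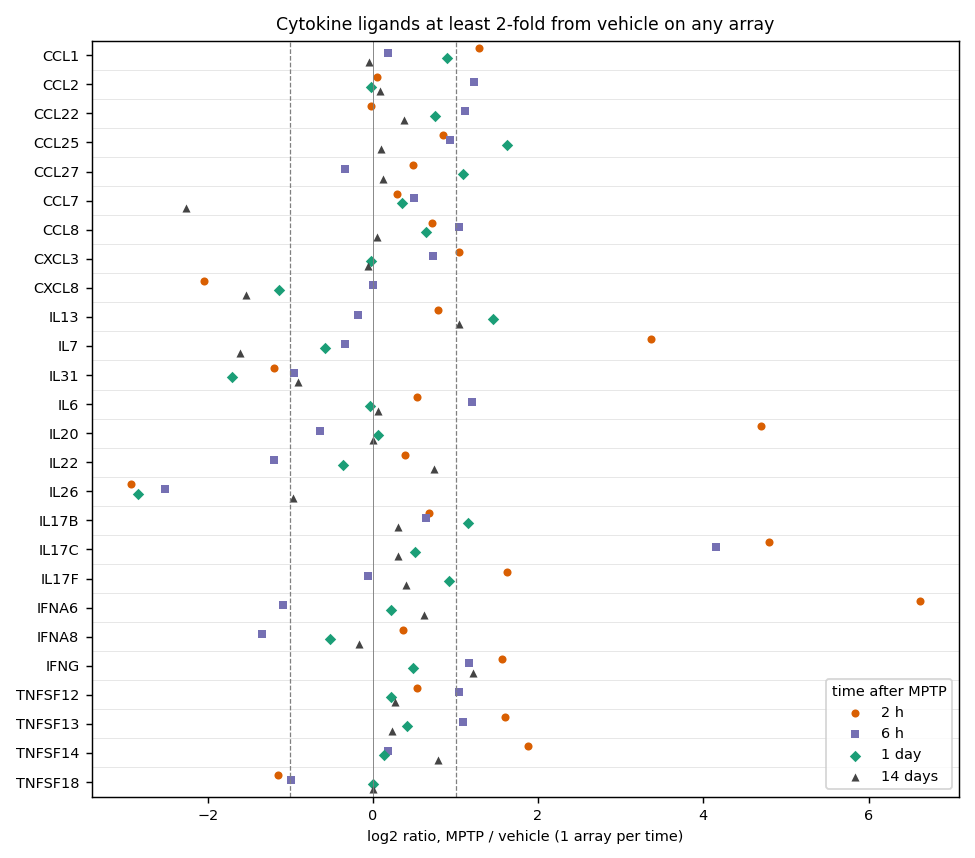
Log2 ratio of MPTP over vehicle on each of the 4 arrays for the 26 ligands at least 2-fold from vehicle (dashed lines) on any array, with 1 symbol per time. IFNA6, IL17C, IL20 and IL7 stand far to the right at 2 h. IL26 stands to the left at 2 h, 6 h and 1 day. CCL2, CCL8, CCL22, IL6 and TNFSF12 pass 2-fold upward at 6 h alone. Symbols at 0 for CXCL8, CCL22, IL20 and TNFSF18 are exact zeros.

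Receptors of these ligands were read from lists chosen for the pathway. Of 20 measured chemokine receptors, 1 (5.00%) was at least 2-fold higher on any array and none lower, where 20.5% of all genes were in either direction: ACKR3, the scavenging receptor of CXCL12, lay at −0.26, 1.17, −0.22 and −0.00055. CCR2, the receptor of CCL2, had −0.02 ± 0.12 (3 features), −0.05 ± 0.14, 0.14 ± 0.36 and −0.19 ± 0.19. The list's medians were −0.02, 0.05, −0.01 and 0.04.

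Of 35 interleukin receptor chains, 2, 2, 1 and 1 were at least 2-fold higher from 2 h to 14 days and 0, 0, 0 and 1 lower, with medians of 0.16, 0.18, 0.04 and 0.10. As shares, 5.71%, 5.71%, 2.86% and 2.86% were higher, against 5.47%, 3.37%, 2.27% and 2.16% of all genes, so the count at 2 h lay at the level of all genes. IL17RC, the chain that joins IL17RA to bind IL17A and IL17F, lay at 4.63, 4.32, 1.46 and 0.11. Set beside IL17C (4.80, 4.15, 0.51 and 0.30), both genes stood at more than 4 at 2 h and 6 h and under 1 at 14 days, each from 1 feature. IL17C signals through IL17RE and IL17RA and not through IL17RC, and IL17RE was not on the list. A link between IL17C and IL17RC was not tested. IL17RA itself had 0.41 ± 0.74 (2 features), −0.29 ± 0.19, 0.04 ± 0.11 and 0.19 ± 0.42. IL6R, which binds IL6, lay at 0.80, 0.48, 0.06 and 4.52, so its high value came at 14 days when IL6 stood at 0.06. Its partner IL6ST, or gp130, had −0.08 ± 0.09 (2 features), 0.10 ± 0.58, −0.25 ± 0.35 and 0.19 ± 0.19. IL13RA2, a decoy receptor of IL13, lay at 1.07, 1.38, 0.14 and −0.08. IL20RA, a chain of the receptor of IL20, lay at −0.87, −0.62, −0.82 and −1.03.

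Of 22 TNF receptors, 5, 1, 2 and 1 were at least 2-fold higher and 0, 1, 0 and 0 lower, with medians of 0.29, 0.07, −0.03 and 0.0058. The higher shares were 22.7%, 4.55%, 9.09% and 4.55%, against 5.47%, 3.37%, 2.27% and 2.16% of all genes, and the lower share at 6 h was 4.55% against 3.89%. LTBR, the receptor that TNFSF14 and the lymphotoxins share, lay at 5.09 at 2 h and 1.31 at 1 day and was listed at 0 at 6 h and 14 days. TNFRSF4, or OX40, lay at 5.73, 1.05, 0.38 and 1.31, while its ligand TNFSF4 had −0.46, −0.15, 0.28 and 0.41. TNFRSF10B had 2.86 ± 3.53 (2 features) at 2 h, an SD larger than the value, so that count rests on features that did not agree. TNFRSF10A lay at 1.15 at 2 h, and CD40 at 1.23 at 2 h and 1.04 at 1 day. TNFRSF18, or GITR, lay at −6.15 at 6 h and at −0.03, −0.13 and −0.11 at the other times. The receptors of TNF itself stood near vehicle, with 0.18 ± 0.32 (2 features), 0.16 ± 0.51, 0.11 ± 0.07 and 0.21 ± 0.56 for TNFRSF1A and 0.26, −0.06, 0.04 and −0.04 for TNFRSF1B.

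Among 19 genes of interferon receptors and JAK-STAT signalling, 1 was at least 2-fold higher at 2 h, 1 was higher at 6 h and 1 was lower at 1 day. Each was 5.26% of the list, against 5.47%, 3.37% and 1.67% of all genes. JAK2, the kinase of the IFNG and IL6 receptors among others, lay at 0.71, 1.33, −1.06 and 0.51. SOCS1, the feedback inhibitor that IFNG induces, had 1.32 ± 1.34 (2 features), 0.80 ± 0.90, 0.32 ± 0.28 and 0.32 ± 0.15. Medians of this list were 0.17, 0.25, −0.03 and −0.0016. Of 19 NF-kB factors and targets, only SELE, an adhesion molecule of activated endothelium, passed 2-fold, with 1.17 at 2 h and 1.10 at 14 days. SELE alone made 5.26% of the list, against 5.47% of all genes higher at 2 h and 2.16% at 14 days. The medians were 0.07, 0.25, 0.04 and 0.20. Of 19 other cytokine genes that the naming rule leaves out, such as CSF1, LIF and TGFB1, MIF was higher at 2 h (1.77), IFNK lower at 2 h (−1.93) and IFNE higher at 14 days (3.52). Each was 5.26% of the list, against 5.47% of all genes higher and 7.22% lower at 2 h, and 2.16% higher at 14 days.

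Markers of cells that could carry these transcripts gave the following values, and their part in the ligand values was not tested. Of all genes, 5.47%, 3.37%, 2.27% and 2.16% were at least 2-fold higher from 2 h to 14 days. The shares lower were 7.22%, 3.89%, 1.67% and 2.12%. In lists this short, 1 gene is a large share. Of 13 microglial markers measured, TYROBP was at least 2-fold higher at 2 h (2.01) and C1QC at 14 days (1.58), each 7.69% of the list. The list medians were 0.03, −0.0070, −0.11 and 0.12. Of 13 markers of monocytes and neutrophils, 1 (7.69%) was at least 2-fold from vehicle, S100A8 at −1.08 at 6 h, with medians of 0.05, −0.0064, 0.02 and −0.07. Of 13 markers of T and NK cells, CD4 was higher at 2 h (1.04) and CD3D lower at 6 h (−1.09), each 7.69% of the list. The medians were 0.25, 0.14, 0.06 and 0.05, while CD247 was an exact 0 throughout. Of 6 markers of B cells, BLK lay at 1.37, 1.26, 1.54 and 0.97. BLK alone was at least 2-fold from vehicle, 16.7% of the list at 2 h, 6 h and 1 day. The 10 endothelial markers had medians of −0.0042, 0.30, 0.20 and 0.18. TIE1 stood at −1.12 at 6 h and 3.85 at 14 days, the only marker past 2-fold (10% of the list at each of these times). Of 8 astrocyte markers, 2 (25%) were at least 2-fold lower at 2 h, S100B at −1.60 and GJA1 at −1.34 ± 0.48 (2 features). The list medians were −0.48, −0.29, −0.02 and 0.01. Of 10 markers of dopamine neurons, 1 (10%), 1 (10%), 2 (20%) and 0 were at least 2-fold higher and none lower. The medians were 0.16, 0.23, 0.24 and 0.13, and SLC6A3 was at 0 on each array. Of 7 erythrocyte markers, 2 (28.6%) were at least 2-fold higher at each of 2 h, 6 h and 14 days, and none at 1 day. None was that far lower. HBA1 lay at 2.66, 1.315, 0.92 and 1.12. HBA2 had 1.19 ± 2.01 (2 features) at 2 h and 1.00 ± 0.46 at 6 h, and ALAS2 had 1.07 ± 0.31 (2 features) at 14 days. The list medians were 0.72, −0.11, 0.52 and 0.97.

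How far features of 1 gene agree could be seen for the 15 ligands with 2 or 3 features. For none of the 15 did all features pass 2-fold in 1 direction on any array. The features of TNFSF8 and TNFSF15 agreed most closely, with SDs of at most 0.13 on any array. The largest SD was 2.09, for IL2 at 1 day. These 15 genes had medians of 0.15, 0.08, 0.12 and 0.09.

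**Figure D4:**
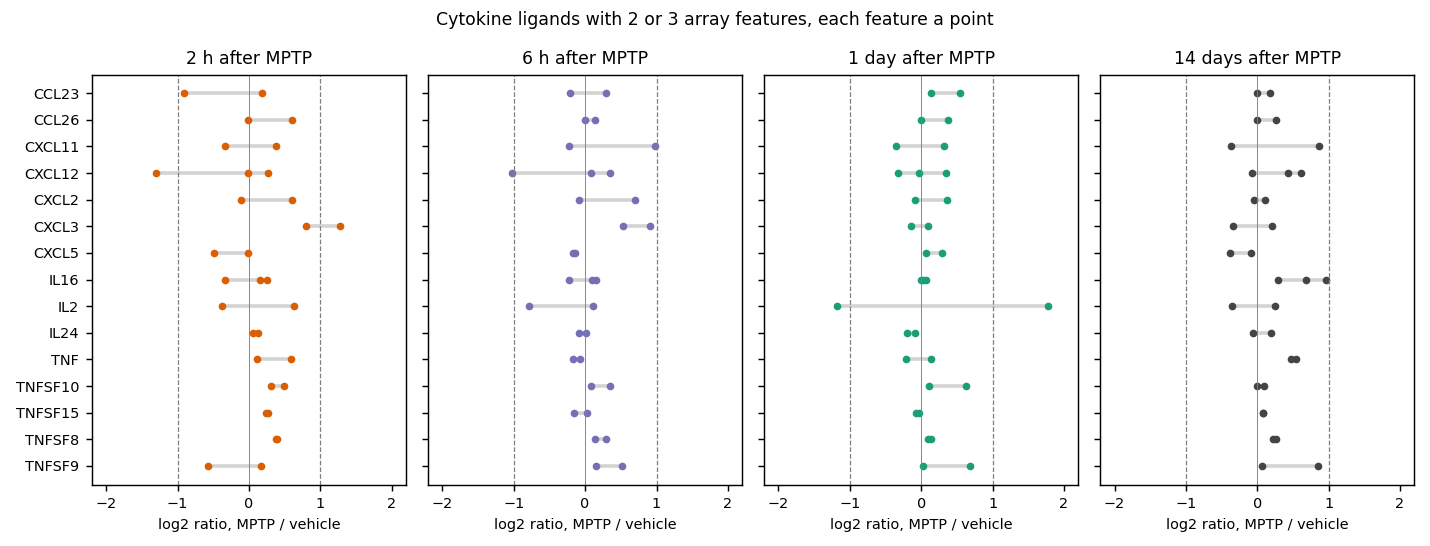
Log2 ratio of MPTP over vehicle of every feature (points, joined by a grey line) for the 15 ligands with 2 or 3 features, with 1 panel per time and dashed lines at 2-fold. The features of IL2 at 1 day lie at −1.18 and 1.78, those of CXCL12 at 2 h span −1.31 to 0.26, and those of TNF at 14 days lie together at 0.54 and 0.47.

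Exact zeros carry no readable ratio. On each array their share among ligand features lay near the background, between that of features with 1 symbol and that of all features. Some features were at 0 on several arrays, so the arrays do not give separate counts. Of 112 ligand features, 4 (3.57%), 5 (4.46%), 5 (4.46%) and 7 (6.25%) were listed at exactly 0 from 2 h to 14 days, against 2.72%, 3.44%, 3.36% and 4.86% of the features with 1 symbol. Of the 116 olfactory receptor features, 0.862%, 0.862%, 0.862% and 1.72% were. The zeros fell on 12 ligand genes, and 2 features, that of IL4 and 1 of the 2 of CCL26, were at 0 on all 4 arrays. Over all features, named or not, 4.70% to 7.38% per array were exact zeros.

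Between neighbouring times the ligands as a set differed little. The median difference of the 95 log2 ratios was −0.06 from 2 h to 6 h, −0.08 from 6 h to 1 day and 0.02 from 1 day to 14 days, against 0.0073, −0.01 and 0.00092 over all genes. The genes with the widest steps from 2 h to 6 h were those far above vehicle at 2 h: the step was −5.33 for IL20 and −3.71 for IL7. For IFNA6, whose 2 h value lies at the limit of the scale, it was at least 7.71 in size, downward. For IL17C it was −3.64 from 6 h to 1 day. From 1 day to 14 days it was −2.61 for CCL7 and 1.87 for IL26. Each step compares 2 animals.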

How the data were processed

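The deposited table holds 1 value per feature and array, read as log10 ratios of Cy5 (MPTP) over Cy3 (vehicle), the dyes per the labels; base, normalization and direction are not stated in the sources used here and stay inferred. Column medians were 0.00633, 0.000146, 0.000277 and 0 from 2 h to 14 days, and values ended at 2 in size. Spot intensities were not used here, so signal over background is unknown, and 1 array per time limits the precision. Per the labels, RNA was amplified in 2 rounds before hybridisation.

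Each array was centred on its median, values were turned to log2, and features of 1 gene were summarised by their median, with Python 3.11.15, pandas 2.3.3 and numpy 2.4.6. Of 43931 features, 29033 had 1 symbol in the platform annotation, 97 had several and were not used, and 14801 were unnamed. Of the 95 ligand symbols, 79 were found in RefSeq's marmoset gene table (calJac240_pri), and CXCL3 and CXCL12 were among those not found. The table served for names, for gene order and, as an alternative, to restrict the ligands to those found. A gene was called at 2-fold. No test was run. The ligands, the gene lists and the rule for named genes were chosen with earlier results of these data known. The rule took ligands past 2-fold on any array, 20 classical mediators and genes with 3 features. Further ligands, such as CCL11, CXCL9, IL11 and IL32, were given with their values outside this rule. Scripts were tested on simulated data.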

Additional observations from a re-analysis of the deposited data

Results flagged for a closer look

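2 ligands stood at least 2-fold above vehicle in the animal of 1 time and at least 2-fold below it in the animal of another. IFNA6 lay at 6.62 at 2 h, the limit of the deposited scale, and at −1.08 at 6 h, at least 7.71 apart on the log2 scale. IL7 lay at 3.37 at 2 h and at −1.61 at 14 days, 4.98 apart. Each rests on 1 feature and 1 animal per time, and neither difference was tested.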

How the results depend on the processing

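No paired analysis was possible because each time has 1 array and no test was run. Without centring, with the mean over features, with exact zeros taken as not measured and with values at the scale limit left out, all counts of ligands at 2-fold stayed within 1.5 times, and all medians and differences between times within 0.1. The medians also did so when all arrays were scaled to the same median absolute deviation and with only the 15 genes that have 2 or more features. The tolerance of 0.1 is wider than the median differences between times, so it cannot show that their sign holds. With the scaling, 6 h minus 2 h went from −0.06 to 0.0059. With the 15 genes, 1 day minus 6 h went from −0.08 to 0.01, and the 6 h median from 0.17 to 0.08. With the scaling to the same median absolute deviation, lower ligands numbered 2 at 2 h and 6 at 14 days, and higher ones 8 at 1 day. CCL1 (0.91), CXCL3 (0.73), IL31 (−0.85) and TNFSF18 (−0.81) then fell under 2-fold at 2 h. At a 3-fold threshold, 2 were lower at 2 h, 1 higher and 1 lower at 6 h, 1 higher at 1 day and 0 higher at 14 days. Requiring 2 or more features that all pass left 0 in both directions at all 4 times. The 80 ligands with 1 feature could not meet this. Of the 15 others, none had all features past 2-fold in 1 direction. With only the 79 ligands in the marmoset gene table, an alternative chosen after seeing the data, 2 were lower at 6 h, since IFNA6 and IFNA8 drop out. Counting a zero only where all 4 arrays had it left 2 features at each time.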
